A study of Mus musculus with 5 samples.

Results

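The genes described here are 10 genes of iron handling in mouse, the hepcidin genes Hamp and Hamp2, the iron exporter gene Slc40a1, the transferrin gene Trf, the transferrin receptor genes Tfrc and Tfr2, the iron importer gene Slc11a2, the ferritin genes Fth1 and Ftl1, and the iron sensor gene Ireb2. They were taken by gene symbol from the deposited gene tables, and all 10 were found among 55573 genes. The RNA sequenced came from 3 tumours of mice with the genotype Th-Cre:MYC and from the normal pancreas of 2 wild-type littermate controls. The Th-Cre:MYC mice carry MYC behind a loxP-flanked transcriptional stop under the CAG promoter, and Cre under the tyrosine hydroxylase promoter (TH-Cre) removes the stop in cells that use or have used that promoter. The wild-type group is given no transgene in the labels. Normal pancreas was perfused with RNAlater before removal, and the labels do not state this for the tumours, nor ages for either group. The titles of tumour replicates 1 and 2 share a leading number, and no label says that the tumours came from separate animals, so the spread between these libraries may in part be technical.

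Iron is carried in plasma by transferrin and enters most cells when transferrin binds its receptor TFRC and is taken up. It leaves cells through ferroportin, the product of Slc40a1, which the peptide hormone hepcidin blocks. Inside the cell the iron regulatory proteins, encoded by Aco1 and Ireb2, bind hairpins called iron-responsive elements when iron is scarce, which blocks translation of the ferritins and of ferroportin and stabilises the mRNA of Tfrc. Hepcidin is made chiefly by the liver, and mice have a second hepcidin gene, Hamp2, whose transcript is also found in pancreas.

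Estimated counts per library summed to between 6611967 and 51669489, with both normal libraries deeper than every tumour library. In normal pancreas, 14 acinar markers summed to 450863.5 and 446599.5 TPM (a level relative to all transcripts of the library, corrected for gene length), against 37.2 to 973 TPM in the tumours. A list of 16 islet and neuroendocrine markers had the opposite order, with 45.2 and 47.2 TPM in normal pancreas and 13251 to 36740 TPM in the tumours. TMM scaling, used for CPM values and fold changes below, sets the bulk of the genes level between libraries and gave a median log2 fold change of 0.38 over 16810 genes tested. With libraries scaled by total counts only the same median was 3.55. For tested members with counts in both groups, the log2 fold change is therefore given with its place among all genes. For other genes it is given without that place unless stated, and is to be read beside these medians. Bulk RNA cannot tell fewer cells of a type from less RNA per cell.

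The set was selected on results of this same comparison, with the counts and fold changes of these 5 libraries known, so the members' differences are descriptions without a test. Of the 10 genes, 8 had enough counts for the fit, and Hamp and Tfr2 did not. Of these 8, 6 were past an edgeR adjusted p of 0.05, 2 higher and 4 lower in tumour, where 67.0% of all genes tested were past it (39.2% higher and 27.8% lower). With total counts only the split was 6 higher and 1 lower, beside 93.3% and 2.37% of all genes. On log2(TPM + 1) with limma it was 4 higher and 2 lower, beside 63.4% and 6.98%. With no filter on low counts 4 of 10 were higher, beside 25.5%, and with tumour replicates 1 and 2 summed 4 of 9 were higher, beside 41.8%. When each library was left out in turn, Tfrc was called higher in 5 of 5 fits and Ireb2 in 1, the fit without tumour replicate 2, so only 1 of the 8 was called higher when normal pancreas replicate 2 or tumour replicate 1 was missing. Trf passed without normal pancreas replicate 1, and Slc40a1 and Tfr2 passed without tumour replicate 3. Of all genes, 26.0% and 26.2% were called higher without normal pancreas replicates 1 and 2, and 38.9%, 39.0% and 37.2% without tumour replicates 1, 2 and 3. The median log2 fold change of the 8 genes was -0.56, or 2.64 with total counts only, and it is the same with Hamp2 at its bound, since Hamp2 is the lowest either way. In TPM, 5 of the 10 genes were higher in every tumour than in either normal library, and 4 were lower in every tumour. The share of all genes that separate in this way was not counted, so these numbers do not set the 10 genes apart from other genes.

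**Figure D1:**
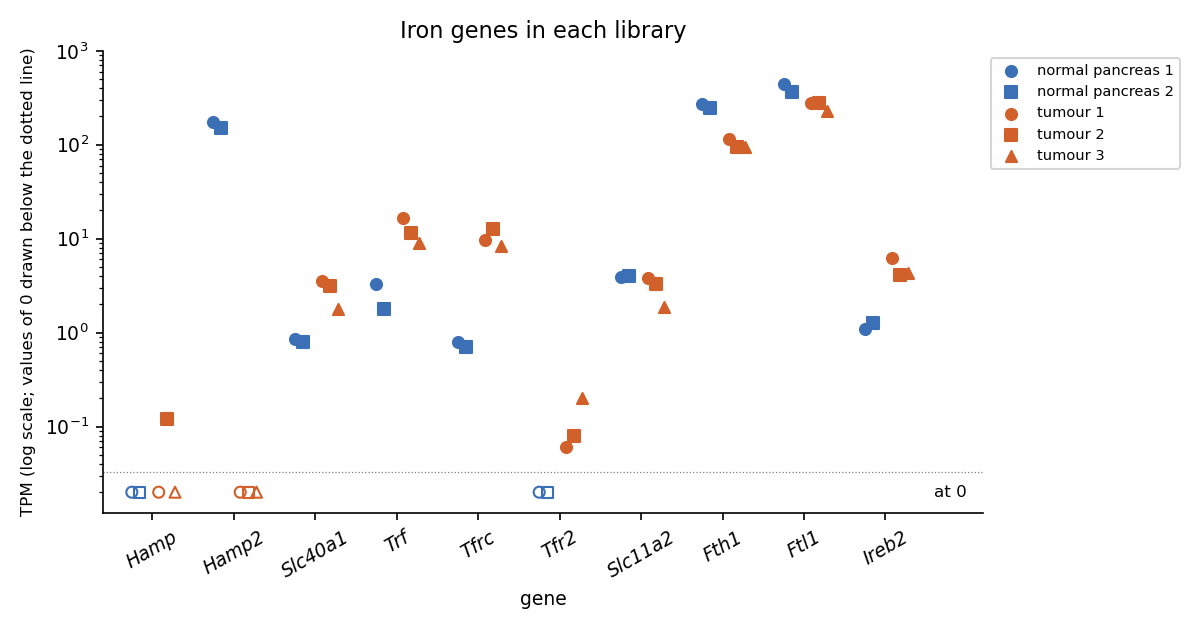
TPM of the 10 iron genes in each of 5 libraries, on a log scale. Circles, squares and triangles are replicates 1, 2 and 3, in blue for normal pancreas and orange for tumour, and open symbols below the dotted line are values of 0. Hamp2 was at 0 in the 3 tumours, Tfrc was above both normal libraries in every tumour, and Fth1 and Ftl1 were below them.

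Normal pancreas held the transcript of Hamp2 and not that of Hamp. Hamp2 (ENSMUSG00000056978.8, GRCm38 chromosome 7, 30922372 to 30924681, minus strand) had 1962 and 1875 counts in normal pancreas, or 172.6 and 152.4 TPM, and 0 counts in each tumour. Hamp (ENSMUSG00000050440.8, chromosome 7, 30942368 to 30944032, minus strand), the gene whose peptide is the known regulator of plasma iron, had 0 counts in both normal libraries and in tumour replicates 1 and 3, and 1 count in tumour replicate 2. The groups did not overlap for Hamp2, and Hamp was at or under the floor of 3 counts in both tissues, so no fold is given for it. Hamp2 was at least 4025-fold lower in the tumours by pooled CPM with TMM scaling, against a floor of 3 counts over the tumours, and at least 435.5-fold lower with total counts only. The bound was 2219 without tumour replicate 1 and 2472 without tumour replicate 2. In normal pancreas, 0 of 3837 counts given to either hepcidin gene were on Hamp, which allows a share of up to 0.0782%, for counting error only.

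The hepcidin genes are close copies, and RSEM splits reads that fit several genes. The spliced transcripts of Hamp2 (420 bases) and Hamp (410 bases) were identical at 388 of 420 alignment positions, gaps included, or 92.4%. Of the stretches of 50 bases in the Hamp2 transcript, 16.2% also occurred in that of Hamp, and of those of 100 bases none of 321 did. How long the reads were is not stated in the labels. The antisense gene Gm44662 spans both hepcidin genes and had 0 counts in every library.

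The sequences before the RefSeq start sites are shown because the copies are alike there too, while normal pancreas had counts on Hamp2 and none on Hamp. Each run is the 250 bases before the RefSeq start on GRCm38.p6, minus strand, 5′ to 3′, from chr7:30944030-30944279 for Hamp and chr7:30924182-30924431 for Hamp2. GENCODE gives Hamp2 2 transcripts that begin at the RefSeq start and 1 that begins farther upstream, so the Hamp2 window also lies in an intron of the gene that was counted. Capitals mark GGCGCC, the core of the BMP response element known from the hepcidin promoter, or the 6 bases aligned with it in Hamp2, followed by the STAT motif TTCNNNGAA.
Hamp: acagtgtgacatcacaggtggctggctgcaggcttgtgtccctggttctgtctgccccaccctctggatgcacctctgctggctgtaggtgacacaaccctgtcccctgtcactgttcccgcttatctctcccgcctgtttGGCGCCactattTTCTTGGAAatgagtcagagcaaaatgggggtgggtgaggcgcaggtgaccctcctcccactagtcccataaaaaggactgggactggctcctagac
Hamp2: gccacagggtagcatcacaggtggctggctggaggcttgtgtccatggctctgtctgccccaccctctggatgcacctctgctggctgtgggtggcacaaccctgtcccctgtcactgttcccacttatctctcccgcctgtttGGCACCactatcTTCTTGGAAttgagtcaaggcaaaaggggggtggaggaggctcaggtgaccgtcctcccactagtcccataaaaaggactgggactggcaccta

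The alignment of these windows had 227 identical positions of 253, or 89.7%, with 20 substitutions and 6 gap positions. One substitution, G145A, fell in the capitalised core, with the base of Hamp first, the position counted from 1 at the 5′ end of the Hamp window, and the base of Hamp2 last. GGCGCC was present 1 time in the Hamp window and 0 times in the Hamp2 window, and 9.54% of 27025 mouse promoter windows of the same length held it. The motif TTCNNNGAA occurred 1 time in each window and in 7.18% of all windows. Each window also held CACCTG, an E-box of the kind bound by the acinar factor PTF1, 2 times, and 17.1% of all windows held it. Neither window held TTTCCC, the other part of the PTF1 site (21.9% of all windows), or AAGGTCA, the site of the acinar receptor NR5A2 (4.05%). All motifs were searched on both strands, and a match describes letters only.

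Genes around the hepcidin pair did not share the level of Hamp2. Usf2, a transcription factor gene next to Hamp, had 49.8 and 47.6 CPM in the normal libraries against 13.4, 12.2 and 12.4 CPM in tumour. Its log2 fold change was -1.94 (SE 0.13, edgeR adjusted p = 6.39e-05) and was 1.24 with total counts only. Mag, on the other side of Hamp2, had at most 7 counts in any library. The hepatocyte marker Alb had 285 and 20 counts in the normal libraries while Hamp2 had 1962 and 1875, and the hepatocyte marker Apoa1 had 0 in both. Of 12 hepatocyte markers, 8 and 7 were at 0 in the normal libraries, and the list summed to 6.41 and 3.52 TPM there and to 28.8 to 70.5 TPM in the tumours. The largest part of each tumour sum was Serpina1a, with 43.46, 23.69 and 18.55 TPM. The list did not move as a whole, since Hnf4a had a log2 fold change of 0.009. In the tumours Alb had 659, 4 and 4 counts and Apoa1 had 2, 1 and 1.

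The 3 protein-coding genes nearest to Hamp2 in log2(TPM + 1) over the 5 libraries, of 21900 compared by Euclidean distance, were Aqp12, Ctrc and Gal. Aqp12, an aquaporin gene of acinar cells, had 153.9 and 151.1 TPM in normal pancreas and at most 0.16 TPM in a tumour, at a distance of 0.279. Ctrc, the chymotrypsin C gene, lay at a distance of 0.365, and Gal, the galanin precursor gene, at 0.404 with 170.8 and 167.2 TPM in normal pancreas. Each of these genes was below 1 TPM in every tumour, which follows from their choice by closeness to Hamp2.

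Slc40a1 (ENSMUSG00000025993.10, chromosome 1, 45908068 to 45926523, minus strand), the gene of the only known cellular iron exporter, was low in every library. It had 0.85 and 0.80 TPM in normal pancreas and 3.54, 3.17 and 1.77 TPM in the tumours. Every tumour was above both normal libraries in TPM, and in CPM the groups overlapped, with 7.33 and 8.69 in normal pancreas and 12.7, 12.02 and 7.13 in the tumours. The log2 fold change was 0.41 (SE 0.28), above that of 50.6% of genes tested, and ran from 0.28 to 0.65 when each library was left out in turn. Macrophages express this gene strongly, and 12 macrophage markers summed to 182 and 94.9 CPM in the normal libraries against 140, 181 and 115 CPM in tumour. The macrophage ranges overlapped between tissues in CPM. In TPM the same markers summed to 45.2 and 21.8 in the normal libraries and 103.5, 124.9 and 67.4 in the tumours, without overlap. The part of macrophages in the Slc40a1 level was not tested.

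Tfrc (ENSMUSG00000022797.16, chromosome 16, 32608920 to 32632794, plus strand), the transferrin receptor of dividing cells, had 0.80 and 0.70 TPM in normal pancreas and 9.79, 12.53 and 8.39 TPM in the tumours. The lowest tumour was far above the highest normal library. In CPM it had 10.7 and 11.2 in normal pancreas and 34.8, 54.0 and 41.8 in the tumours. The log2 fold change was 1.99 (SE 0.22), above that of 73.4% of genes tested, or 5.17 and above 73.7% with total counts only. Across left-out libraries it stayed between 1.81 and 2.14.

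Red cell precursors also use Tfrc, and blood transcripts moved with it. Of 9 erythroid markers the sum was 21.9 and 9.04 TPM in normal pancreas and 511, 1159.1 and 321 TPM in the tumours. Tumour replicate 2 had the highest erythroid sum and the highest Tfrc level. The precursor marker Klf1 had at most 1 count in any library. The part of blood cells in the Tfrc level was not tested.

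The 3 protein-coding genes nearest to Tfrc in log2(TPM + 1) over the 5 libraries were Plec, Akap11 and Dipk1b. Plec, the gene of the cytoskeletal linker plectin, had 0.78 and 0.77 TPM in normal pancreas and 9.85, 12.12 and 8.39 TPM in the tumours, at a distance of 0.0754. Akap11, an anchoring protein gene for protein kinase A, lay at 0.228 and Dipk1b at 0.313. The likeness is in level and pattern over 5 libraries that differ by tissue.

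Trf (ENSMUSG00000032554.15, chromosome 9, 103204001 to 103230444, minus strand), the transferrin gene, had 3.31 and 1.79 TPM in normal pancreas and 16.65, 11.37 and 9.03 TPM in the tumours. Every tumour was above both normal libraries, which themselves differed. The log2 fold change was 1.05 (SE 0.43), above that of 62.1% of genes tested. It was 1.85 without normal pancreas replicate 1 and 0.55 without normal pancreas replicate 2. Trf shares its strand with the overlapping gene model Gm20425, to which RSEM gave 19.2 and 107.8 counts in the normal libraries. With both summed, a step added after seeing the data, the normal libraries had 17.1 and 14.2 CPM and the tumours 35.5, 23.2 and 23.9 CPM, and the log2 fold change was 0.82 (SE 0.23). The normal libraries lay closer together in the sum than in Trf alone, where they had 15.6 and 6.26 CPM.

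Tfr2 (ENSMUSG00000029716.13, chromosome 5, 137569840 to 137587481, plus strand), the receptor that senses transferrin in liver and red cell precursors, was nearly absent. It had 0 counts in both normal libraries and 7, 8 and 4 counts in the tumours, at most 0.20 TPM. Against a floor of 3 counts over the normal libraries it was at least 2.01-fold higher by pooled CPM, or at least 18.6-fold with total counts only. Without normal pancreas replicate 1 the bound was 1.02 and without replicate 2 it was 1.004, since the floor rises as depth falls, so no difference was detectable there with TMM scaling.

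Slc11a2 (ENSMUSG00000023030.16, chromosome 15, 100387898 to 100425072, minus strand), the gene of the importer DMT1 that moves iron out of endosomes, differed from the receptor. It had 3.86 and 4.0 TPM in normal pancreas and 3.81, 3.27 and 1.87 TPM in the tumours, with tumour replicate 1 close to the normal range. In CPM it had 26.1 and 28.7 in normal pancreas and 11.4, 10.19 and 6.72 in the tumours, without overlap. The log2 fold change was -1.53 (SE 0.23), with 12.8% of genes tested below it. It was 1.67 with total counts only, again with 13.0% of genes below it.

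Ferritin transcripts were the most abundant of these genes and were lower in the tumours. Fth1 (ENSMUSG00000024661.7, chromosome 19, 9980598 to 9985098, plus strand), the heavy chain that oxidises iron, had 268.6 and 245.2 TPM in normal pancreas and 114.2, 95.46 and 94.56 TPM in the tumours. Ftl1 (ENSMUSG00000050708.16, chromosome 7, 45457944 to 45459884, minus strand), the light chain that helps lay down the iron core, had 440.9 and 367.7 TPM in normal pancreas and 278.5, 277.6 and 228.2 TPM in the tumours. For each gene all tumours were below both normal libraries.

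The log2 fold change was -2.79 (SE 0.18) for Fth1 and -2.11 (SE 0.22) for Ftl1 with TMM scaling, and these turned to 0.39 and 1.07 with total counts only. Their place among all genes did not turn, with 4.71% and 7.70% of genes tested below them with TMM and 4.69% and 7.69% with total counts only. The ferritin light chain copy Ftl1-ps1, protein-coding in the deposited table despite its name, with which the Ftl1 transcript shares 11.9% of its stretches of 50 bases, held 9.39% and 9.62% of the summed counts of Ftl1 and Ftl1-ps1 in normal pancreas and 6.04% to 7.25% in the tumours. With that sum the log2 fold change of the light chain was -2.15 (SE 0.22). Fth-ps2, which shares no stretch of 50 bases with the Fth1 transcript, had at most 9 counts in any library.

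Ireb2 (ENSMUSG00000032293.8, chromosome 9, 54863789 to 54912530, plus strand), the gene of iron regulatory protein IRP2, had 1.10 and 1.27 TPM in normal pancreas and 6.16, 4.06 and 4.28 TPM in the tumours. The groups did not overlap in TPM or in CPM, where normal pancreas had 20.0 and 24.1 and the tumours 36.2, 26.4 and 33.5. The log2 fold change of 0.54 (SE 0.19) lay above that of 53.2% of genes tested, close to the median of all genes.

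**Figure D2:**
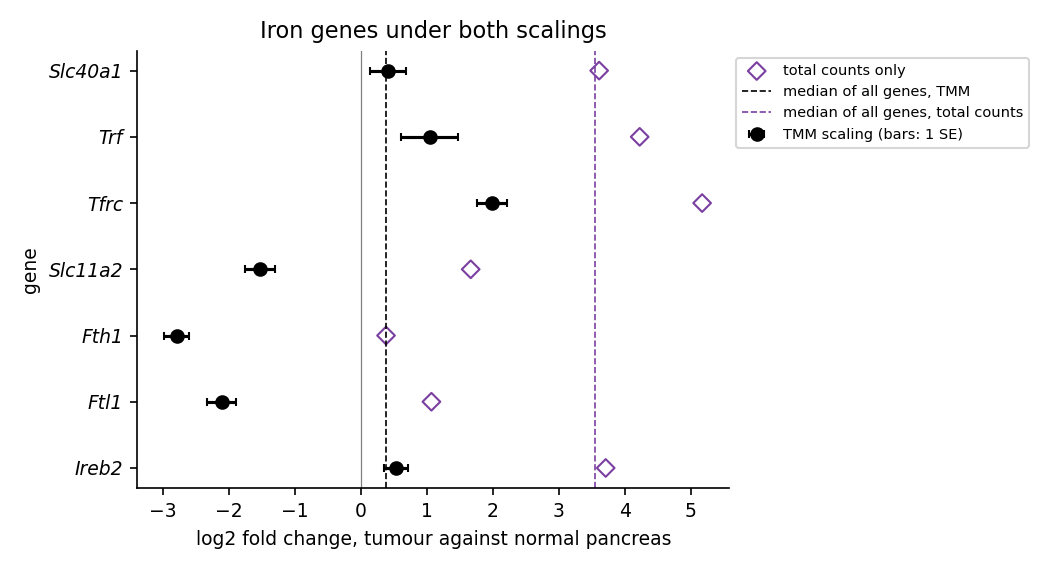
Log2 fold change of 7 iron genes between tumour and normal pancreas, with TMM scaling (black circles, bars 1 SE) and with total counts only (open diamonds). Dashed lines are the medians of all genes tested, 0.38 and 3.55. Under each scaling Fth1, Ftl1 and Slc11a2 lie left of that scaling's own median, although their sign depends on the scaling.

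Iron-responsive elements are shown because iron acts on the mRNAs that hold them. A search of UTRs for runs of 17 bases made of a bulged C, 5 bases, the loop CAGTGN and 5 bases that pair with the first 5 (G to T pairs allowed) found 7 elements in 4 of the 10 genes on the transcript strand of GENCODE M21. Such a match was found in the 5′ UTR of 0.142% and in the 3′ UTR of 0.589% of 21901 protein-coding genes. Capitals mark the loop, and positions are on GRCm38.
Fth1, 5′ UTR, chr19:9982738-9982754, plus strand: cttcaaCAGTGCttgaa
Ftl1, 5′ UTR, chr7:45459785-45459801, minus strand: cttcaaCAGTGTttgaa
Slc40a1, 5′ UTR, chr1:45925471-45925487, minus strand: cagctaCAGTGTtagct
Tfrc element 1, 3′ UTR, chr16:32631225-32631241, plus strand: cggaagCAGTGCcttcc
Tfrc element 2, 3′ UTR, chr16:32631604-32631620, plus strand: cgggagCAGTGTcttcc
Tfrc element 3, 3′ UTR, chr16:32631669-32631685, plus strand: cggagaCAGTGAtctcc
Tfrc element 4, 3′ UTR, chr16:32631716-32631732, plus strand: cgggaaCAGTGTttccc

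The ferritin genes share the same stem and differ in the last base of the loop. Of the 3 genes with a 5′ element, Fth1 and Ftl1 were lower in every tumour and Slc40a1 was higher in every tumour in TPM. Tfrc, the only gene in which this search found 3′ elements, was higher in every tumour. Among genes without a match, Slc11a2 and Hamp2 were lower in every tumour in TPM, and Trf, Tfr2 and Ireb2 were higher. Elements with other loops or extra bulges are not found by this pattern, so a gene without a match may still hold an element. RNA levels do not measure the translation that 5′ elements control.

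Ratios of TPM within a library do not depend on how libraries are scaled to each other. The ratio of Tfrc to Fth1 was 0.00298 and 0.00286 in normal pancreas and 0.0857, 0.131 and 0.0887 in the tumours. The mean in tumour was 34.9 times that in normal pancreas, and the lowest tumour was 28.8 times the highest normal library. The ratio of Tfrc to Ftl1 was 0.00186 ± 6.3e-05 (SD, n = 2) in the normal libraries, and in the tumours it was 0.0390 ± 0.00536 (SD, n = 3), 20.99 times as high. Receptor transcripts were thus higher against ferritin transcripts in every tumour than in either normal library.

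The makeup of ferritin transcripts differed as well. The ratio of Fth1 to Ftl1 was 0.609 and 0.667 in normal pancreas and 0.410, 0.344 and 0.414 in the tumours, without overlap. Tfrc to Slc40a1, uptake against export, was 0.941 and 0.875 in normal pancreas and 2.77, 3.95 and 4.74 in the tumours. Slc11a2 to Tfrc was 4.83 and 5.71 in normal pancreas and 0.389, 0.261 and 0.223 in the tumours, so the receptor transcript overtook the importer transcript. Ireb2 to Aco1, the genes of the iron regulatory proteins, was 0.387 and 0.572 in normal pancreas and 2.05, 1.20 and 1.52 in the tumours.

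**Figure D3:**
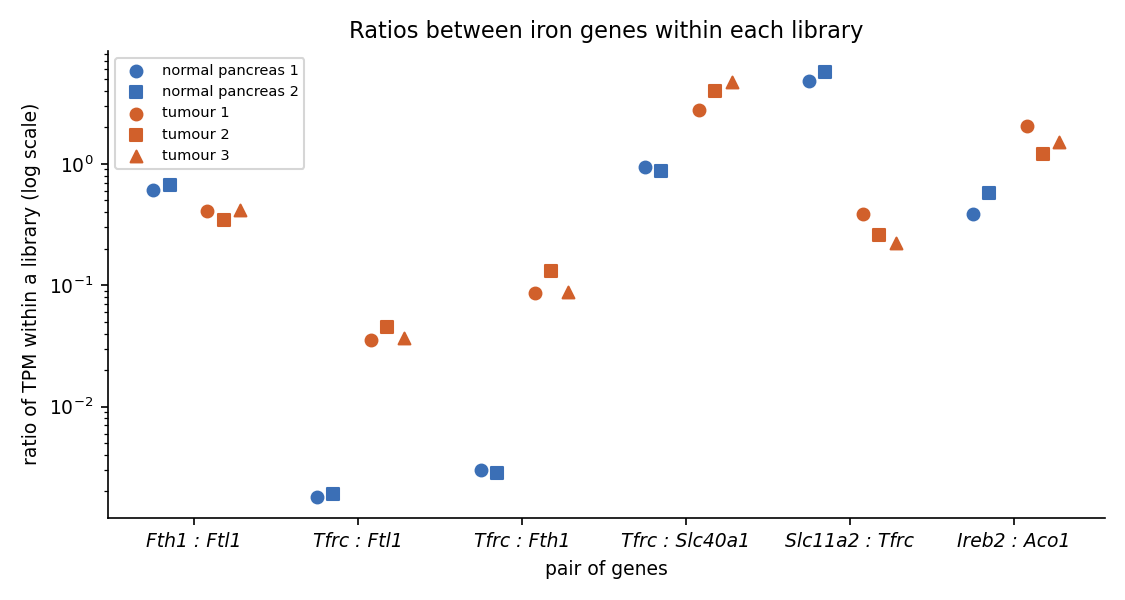
Ratio of TPM between pairs of iron genes within each library, on a log scale. Symbols are replicates, blue for normal pancreas and orange for tumour. The groups are separate for all 6 pairs, with the widest gap for Tfrc to Fth1, where the lowest tumour is 28.8 times the highest normal library.

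The wider iron pathway was read from 6 lists with 88 other genes in the table, of which 78 were tested. With edgeR and TMM scaling, 16 were higher in tumour, 37 were lower and 25 did not pass, or 20.5% higher and 47.4% lower beside 39.2% and 27.8% of all genes tested. The median log2 fold change was -0.58, beside 0.38 for all genes. With total counts only, 73 were higher and 1 was lower, beside 93.3% and 2.37% of all genes, with a median of 2.60 beside 3.55. On log2(TPM + 1) 39 were higher and 9 lower, beside 63.4% and 6.98% of all genes. The adjusted p-values below are from edgeR with TMM scaling and Benjamini-Hochberg adjustment over all genes.

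**Figure D4:**
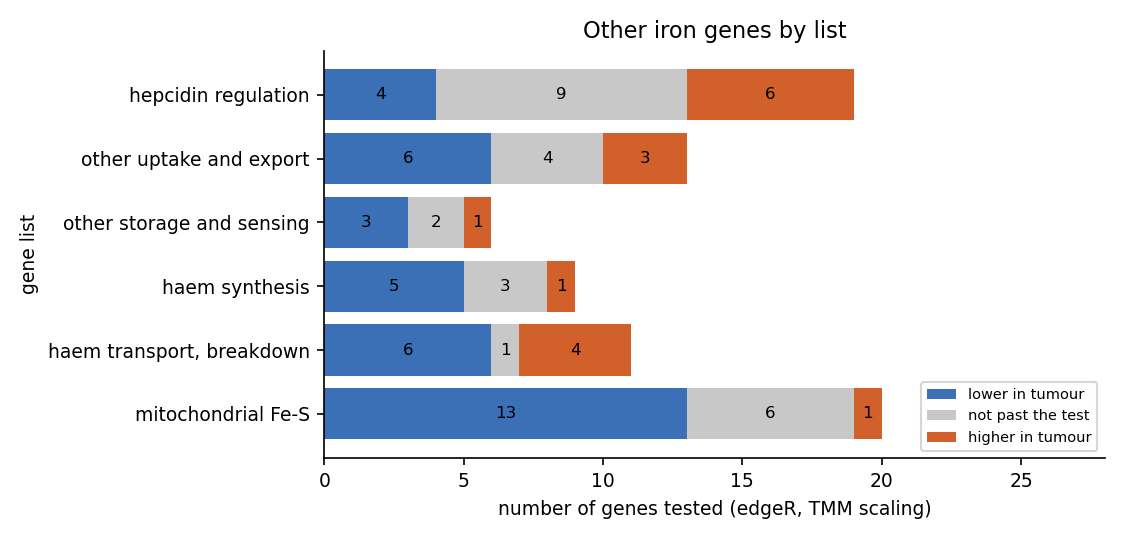
Number of genes tested in each of 6 lists of other iron genes that were lower in tumour (blue), did not pass (grey) or were higher in tumour (orange), edgeR with TMM scaling. The mitochondrial iron-sulfur list had 13 of 20 lower, beside 27.8% of all genes, and the hepcidin regulation list 6 of 19 higher, beside 39.2%. With total counts only, 73 of the 78 were higher, beside 93.3% of all genes.

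Genes that regulate hepcidin were split. Of 19 tested, 6 rose, 4 fell and 9 did not pass, with a median of 0.14. These were 31.6% higher and 21.1% lower, beside 39.2% and 27.8% of all genes tested. On total counts 17 rose and none fell, beside 93.3% and 2.37% of all genes. On log2(TPM + 1) 15 rose and 1 fell, beside 63.4% and 6.98%. Hfe, which helps the liver sense transferrin, rose from 1.36 and 1.62 CPM to 6.72, 5.82 and 6.23 CPM (log2 2.07, SE 0.25, edgeR adjusted p = 0.000602). Bmpr2, a BMP receptor gene, rose by 0.99 (SE 0.18, edgeR adjusted p = 0.0031), and Smad5, which carries BMP signals to the nucleus, by 0.73 (SE 0.13, edgeR adjusted p = 0.00293). The log2 fold changes of Bmpr2 and Smad5 lay above those of 61.0% and 56.7% of genes tested, near the middle of all genes. Atoh8, a BMP-responsive factor gene, fell from 6.65 and 5.08 CPM to 0.558, 0.341 and 0.139 CPM (edgeR adjusted p = 0.000654, or 0.226 with total counts only). Jak2, the gene of a kinase that can act with the IL-6 receptor, did not pass (a log2 fold change of -0.01, SE 0.18, edgeR adjusted p = 0.946). Hjv, the BMP co-receptor of hepatocytes, had 0 counts in every library.

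Other uptake and export genes moved in both directions. Of 13 tested, 3 rose, 6 fell and 4 did not pass, or 23.1% higher and 46.2% lower beside 39.2% and 27.8% of all genes. The median was -0.19 (the same with Cubn, at 0 in normal pancreas, at its bound of at least 2.86-fold higher). On total counts 11 rose and none fell, beside 93.3% and 2.37% of all genes. On log2(TPM + 1) 5 rose and 1 fell, beside 63.4% and 6.98%. Steap2, a metal reductase gene, rose from 0.605 and 0.442 CPM to 6.17, 7.62 and 6.03 CPM (edgeR adjusted p = 0.000166). Its relative Steap3, the main endosomal iron reductase of red cell precursors, fell from 9.45 and 7.51 CPM to 1.09, 1.52 and 1.52 CPM (edgeR adjusted p = 0.000316), and its call was lost on total counts (log2 0.55, edgeR adjusted p = 0.181). Slc22a17, a receptor gene for the iron carrier lipocalin 2, rose by 3.17 (SE 0.27, edgeR adjusted p = 0.00015). Slc39a14, the importer by which pancreas takes up iron that is not bound to transferrin, fell from 35.5 and 41.8 CPM to 18.3, 18.2 and 17.7 CPM (edgeR adjusted p = 0.000641), and turned to higher with total counts only (2.09) and on log2(TPM + 1) (0.35). Mcoln1, a lysosomal channel gene, did not pass (a log2 fold change of -0.19, SE 0.16, edgeR adjusted p = 0.329).

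Of 6 tested genes that store or sense iron, 1 rose, 3 fell and 2 did not pass. These were 16.7% higher and 50% lower, beside 39.2% and 27.8% of all genes tested. All 6 rose with total counts only, beside 93.3% of all genes. On log2(TPM + 1) 3 rose and 2 fell, beside 63.4% and 6.98%. Pcbp1 and Pcbp2, which bring iron to ferritin and also bind RNA, fell by 1.94 (SE 0.15, edgeR adjusted p = 0.000103) and 1.98 (SE 0.15, edgeR adjusted p = 0.000113), and turned to 1.24 and 1.19 with total counts only. Pcbp1 had 134.3 and 138.9 CPM in the normal libraries against 32.1, 35.1 and 40.0 CPM in tumour. Aco1, the gene of iron regulatory protein IRP1, fell from 30.5 and 27.5 CPM to 11.4, 12.4 and 14.7 CPM (edgeR adjusted p = 0.000914), and turned to 1.99 with total counts only and 0.21 on log2(TPM + 1). Herc2, a ubiquitin ligase gene, rose by 1.57 (SE 0.19, edgeR adjusted p = 0.000553). Ncoa4, the receptor that takes ferritin to lysosomes, did not pass (a log2 fold change of 0.06, SE 0.13, edgeR adjusted p = 0.708).

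Haem synthesis genes were mostly lower with TMM scaling, with 5 of 9 falling, 1 rising and 3 not past the test, and a median of -1.09. These were 11.1% higher and 55.6% lower, beside 39.2% and 27.8% of all genes tested. All 9 rose with total counts only, beside 93.3% of all genes. On log2(TPM + 1) 4 rose and 2 fell, beside 63.4% and 6.98%. Alad fell from 18.4 and 14.1 CPM to 3.08, 3.10 and 2.701 CPM (edgeR adjusted p = 0.000109). Urod fell by 1.42 (SE 0.14, edgeR adjusted p = 0.000246) and Cpox by 1.21 (SE 0.14, edgeR adjusted p = 0.000456), and both turned to higher with total counts only and on log2(TPM + 1). Ppox did not pass (a log2 fold change of 0.34, SE 0.21, edgeR adjusted p = 0.188). The gene that rose was Alas2, the first enzyme in red cell precursors, named after its values were seen, with 0.378 and 0.0737 CPM in the normal libraries against 2.95, 7.56 and 3.53 CPM in tumour (edgeR adjusted p = 0.00302). Alas2 is also an erythroid marker and moved with the haemoglobin genes, the part of which was not tested.

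Of 11 tested genes of haem transport and breakdown, 4 rose, 6 fell and 1 did not pass. These were 36.36% higher and 54.55% lower, beside 39.2% and 27.8% of all genes tested. On total counts 10 rose and 1 fell, beside 93.3% and 2.37% of all genes. On log2(TPM + 1) 4 rose and 1 fell, beside 63.4% and 6.98%. Flvcr2, a transporter gene first described for haem, had 84 and 90 counts in normal pancreas and 1 count in all tumours, a 548-fold lower pooled CPM with a 95% exact binomial interval of 97.0 to 21752 (edgeR adjusted p = 0.00016). The ratio was 59.3 (interval 10.5 to 2353) with total counts only, 302 without tumour replicate 1 and 336 without tumour replicate 2, and without tumour replicate 3, which held the count, it was at least 148-fold lower. Slc48a1, which moves haem out of lysosomes, fell from 56.7 and 54.9 CPM to 17.9, 19.4 and 16.4 CPM (edgeR adjusted p = 0.000132), and turned to 1.55 with total counts only. Slc46a1, a folate transporter gene also described for haem, fell by 1.97 (SE 0.18, edgeR adjusted p = 0.000215), and turned to 1.21 with total counts only. Abcg2, an exporter of haem and drugs, rose by 2.45 (SE 0.26, edgeR adjusted p = 0.000353). Cd163, the macrophage receptor for haemoglobin bound to haptoglobin, did not pass (a log2 fold change of -1.01, SE 0.38, edgeR adjusted p = 0.0503).

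Genes of mitochondrial iron and iron-sulfur clusters fell in 13 of 20 cases, rose in 1 and did not pass in 6, with a median of -0.86. These were 5% higher and 65% lower, beside 39.2% and 27.8% of all genes tested. All 20 rose with total counts only, beside 93.3% of all genes, with a median of 2.33 below the 3.55 of all genes. On log2(TPM + 1) 8 rose and 2 fell, beside 63.4% and 6.98%. Iscu, the scaffold on which clusters are built, fell from 46.5 and 43.3 CPM to 8.19, 9.20 and 8.24 CPM (edgeR adjusted p = 4.03e-05). Fdx1, a ferredoxin gene, fell by 2.37 (SE 0.19, edgeR adjusted p = 0.000115), and the cluster assembly gene Isca1 fell by 1.14 (SE 0.13, edgeR adjusted p = 0.00047). Hspa9, the mitochondrial chaperone that hands clusters on, fell from 211 and 209 CPM to 92.4, 89.0 and 96.0 CPM (edgeR adjusted p = 0.000509). Iscu and Fdx1 turned to higher with total counts only (0.79 and 0.81), and Isca1 and Hspa9 did so there and on log2(TPM + 1). Abcb8 did not pass (a log2 fold change of -0.09, SE 0.19, edgeR adjusted p = 0.706).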

How the data were processed

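The authors deposited estimated counts (expected counts) and TPM per gene for 5 libraries, and Trim Galore 0.60, STAR 2.7 and RSEM 1.31 with builds mm10 and GRCm38 are listed, per the submitters' processing notes. No settings, kit, read length or annotation release were found in these sources. The deposited effective lengths, another kind of value in bases, and the FPKM table were not used. Series tables and library files held the same values.

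Counts were rounded and tested in R 4.3.3 with edgeR 4.0.16 (quasi-likelihood test, TMM scaling, filterByExpr defaults, Benjamini-Hochberg adjustment over 16810 genes, threshold 0.05). The fit was checked on simulated counts with a small set of changed genes, balanced in direction. That setting lacks the difference in makeup between these tissues, so the check does not bear on the choice of scaling. The SE was derived from the quasi-likelihood F, as the size of the log2 fold change over the root of F. Alternatives used DESeq2 1.42.0 and limma 3.58.1 on log2(TPM + 1) and log2(TPM + 0.1). All 92 spike-in rows, at 0 counts, were left out. Gene positions are from GENCODE M21, whose identifiers agree, version included, with 55180 of 55573. Promoters are from RefSeq GRCm38.p6, which held both hepcidin genes.

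The members and lists were chosen with earlier results of these data known. Text names the 10 members, per list the up to 4 genes with the smallest p past the threshold and separate between groups, plus the least changed gene that did not pass, and for Hamp2 and Tfrc the 3 nearest genes. Some genes that this rule names are not reported here. Usf2, Mag, marker genes and copies were named beside results. Groups at 0 are compared with a floor of 3 counts over the group, and intervals cover counting error only.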

Additional observations from a re-analysis of the deposited data

How the results depend on the processing

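Every count and every direction against a median of all genes rests on 2 normal and 3 tumour libraries, of which tumour replicates 1 and 2 may share an animal, and scaling decides the sign of most iron genes below that median. With total counts only, 15681 of all genes were higher and 398 lower, and 73 of the other iron genes were higher and 1 lower. With limma on log2(TPM + 1) these counts were 10665, 1173, 39 and 9, and on log2(TPM + 0.1) they were 11558, 1192, 41 and 9. They stand against 6587 higher and 4669 lower of all genes, and 16 and 37 of the other iron genes, with edgeR and TMM. DESeq2, upper-quartile scaling, protein-coding genes only, no filter on low counts and tumour replicates 1 and 2 summed gave counts within 1.5 times of these. Leaving out each library gave 4631 to 6581 higher and 3443 to 4823 lower of all genes, and 13 to 17 higher and 28 to 38 lower of the other iron genes.

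With total counts only the log2 fold change turned from lower to higher for Slc11a2 (1.67), Fth1 (0.39), Ftl1 (1.07), Abcb8 (3.10), Aco1 (1.99), Alad (0.73), Cd163 (2.18), Cpox (1.97), Fdx1 (0.81), Hspa9 (1.99), Isca1 (2.03), Iscu (0.79), Jak2 (3.17), Mcoln1 (2.995), Pcbp1 (1.24), Pcbp2 (1.19), Slc39a14 (2.09), Slc46a1 (1.21), Slc48a1 (1.55), Steap3 (0.55) and Urod (1.76). On log2(TPM + 1) and log2(TPM + 0.1) it turned for Abcb8 (1.22 and 1.64), Aco1 (0.21 and 0.27), Cpox (0.35 and 0.45), Hspa9 (0.29 and 0.30), Isca1 (0.22 and 0.24), Jak2 (0.79 and 1.27), Mcoln1 (1.43 and 1.81), Slc39a14 (0.35 and 0.43) and Urod (0.22 and 0.25). Slc46a1 and Slc48a1 stayed lower but did not pass on either TPM scale. Cd163 also changed sign on those scales (0.11 and 0.25), while it passed as lower with DESeq2, without tumour replicate 1 and with tumour replicates 1 and 2 summed. No paired analysis was possible because the titles of the normal and tumour libraries share no number that pairs them. The library names begin with numbers in separate ranges for the 2 tissues. Their meaning is not stated, and a difference that goes with them cannot be told apart from tissue. In the fits, protein-coding genes held 48444784 of 48838023 and 51325709 of 51659046 counts in normal pancreas. In the tumours they held 10299898 of 15044641, 8234684 of 12571884 and 4106153 of 6602173. Depth limits Hamp and Tfr2, which had at most 8 counts in any library.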
